A study of Bos taurus with 6 samples.

Results

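The genes described here encode 8 small leucine-rich proteoglycans (SLRPs), namely asporin (ASPN), decorin (DCN), biglycan (BGN), lumican (LUM), fibromodulin (FMOD), PRELP, osteoglycin (OGN) and osteomodulin (OMD), together with the proteoglycan serglycin (SRGN). They were taken by gene symbol from the deposited array table, and each of the 9 symbols matched 1 transcript cluster (a group of probe sets that stands for a gene). The array table has 26773 rows, among them 82 reporter control rows, and all are counted here as transcript clusters. RNA came from 6 cultures of primary bovine granulosa cells (GC), with 1 array of the type Bovine Gene 1.0 ST per culture. In 3 cultures the cells were plated at normal density (100000 cells per well), and in the other 3 at high density (1000000 cells per well). All cultures were kept for 9 days on collagen-coated plates in serum-free medium with FSH, IGF-1 and androstenedione. Each cell preparation was a pool from the ovaries of many cows whose cycle stage was not defined, so a culture does not represent a single animal or follicle. The labels do not say whether cultures of both densities came from the same pool, and the p-values measure only the spread between these cultures.

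SLRPs have a core protein built of leucine-rich repeats, which carries glycosaminoglycan (GAG) chains in most members. They are secreted into the extracellular matrix, where they coat collagen fibrils and control how these assemble, and several of them bind growth factors such as TGF-beta. Serglycin is not an SLRP. It is the proteoglycan of intracellular granules, best known from blood cells, where its GAG chains hold proteases and cytokines for storage or secretion. In the ovary, proteoglycans made by GC are part of the follicular fluid and of the matrix that is remodelled around ovulation.

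Plating density divided these genes into those that fell, those that rose and those that were not called. SRGN, ASPN and OMD were lower at high density, FMOD and BGN were higher, and DCN, LUM, PRELP and OGN did not pass the thresholds. Each difference is the log2 fold change of high over normal density, fitted by limma, with p-values adjusted by Benjamini-Hochberg over the whole table. A gene is termed called when it passed the thresholds of the study's methods, a fold change (FC) above 1.5 in size with a p-value and a false discovery rate (FDR) below 0.05. SE stands for the standard error of a log2 fold change. Of the 9 genes 5 were called, 3 lower and 2 higher, while 7.49% of all transcript clusters were called, 3.51% lower and 3.97% higher. These genes were picked with earlier results of these data known, so the count describes them and is not a test of the family. The median log2 fold change was −0.02 over the 9 genes and 0.02 over all transcript clusters.

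The level of the signals limits what can be said about some of these genes. The 95th percentile of the signals of 82 reporter control rows, a log2 signal of 4.62, was used as the background level. This level is strict, since 51.2% of all transcript clusters had the means of both densities at or below it. SRGN, FMOD, DCN, LUM and PRELP lay above it in all 6 cultures, whereas ASPN, OMD, OGN and BGN lay below it in all 6. For the last 4 genes the measured difference in log2 signal is given, and an FC is given only as a bound against a lower background level. High density replicate 2 stood apart from the other cultures, with a score of −29.1 on the second principal component of all signals against 13.7 and 9.73 for the other high density cultures, and calls that changed without it are given beside the results. The calls of the 9 genes did not change when it was left out.

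**Figure D1:**
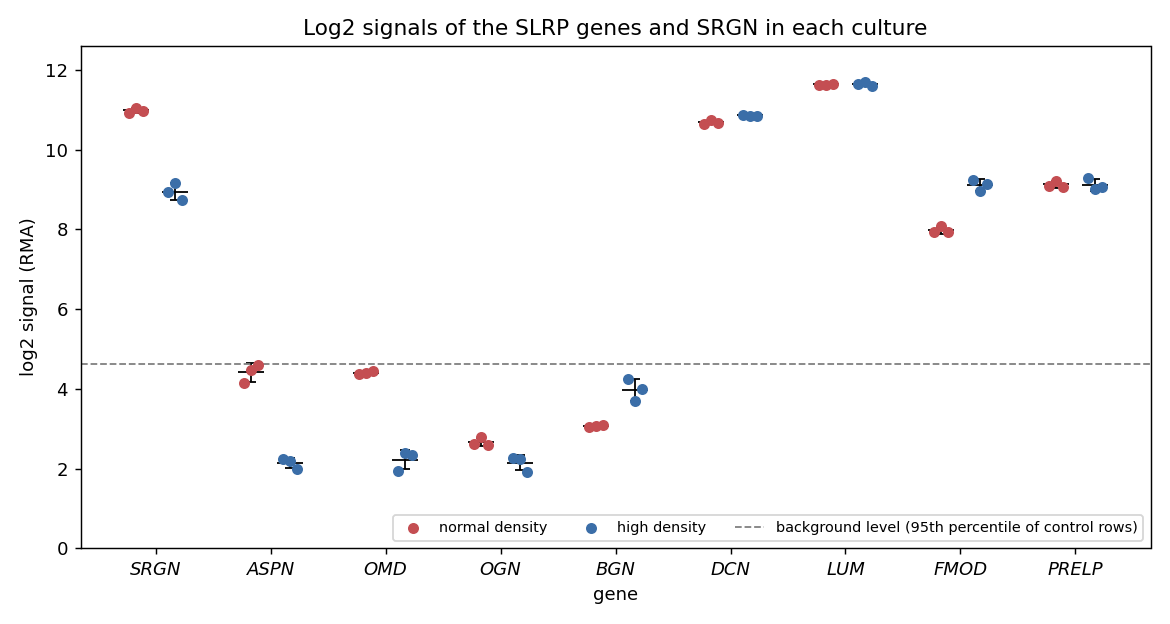
Log2 signals (vertical axis) of SRGN and the SLRP genes (horizontal axis) in each culture, red for normal and blue for high density, with black bars for the mean ± SD (n = 3) and a dashed line at the background level of 4.62. The signals of SRGN, ASPN and OMD were lower in all high density cultures, those of FMOD and BGN were higher, and those of LUM and PRELP overlapped between the densities.

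Serglycin showed the clearest fall, since its signal was far above background at both densities. In the normal density cultures its log2 signals were 10.92, 11.05 and 10.97, and in the high density cultures 8.94, 9.16 and 8.74. The highest high density culture was below the lowest normal density culture, so the groups did not overlap. The log2 fold change was −2.04 (SE = 0.11, adjusted p = 5.04e-05 by limma), which is a 4.10-fold lower level. Among all transcript clusters this was number 19 in the order of falls. The SD was 0.07 at normal and 0.21 at high density (n = 3 each).

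Because serglycin is a product of blood cells, markers of leukocytes were read beside it. Of 18 leukocyte markers 0 were called by limma and 0 by the methods' t-test. At an unadjusted p below 0.05, 2 were higher and 1 was lower, while over all transcript clusters 15.1% were higher and 17.2% lower at this p. Only KIT, a receptor that other cell types carry as well, lay above the background level. PTPRC, the common leukocyte antigen, averaged 2.16 ± 0.11 in the normal density cultures and 1.94 ± 0.11 in those of high density (SD, n = 3), both below background. The summed linear signal of the list was between 416 and 430 at normal density and between 529 and 545 at high density, a sum that is led by KIT, and the part of leukocytes in the fall of SRGN was not tested. Genes known as partners or cargo of serglycin, a list of 19 transcript clusters, had 2 called higher and 0 called lower by limma, with a median log2 fold change of 0.13. The calls are 10.5% of the list, against 7.49% of all transcript clusters. Only 3 of the 19 had a mean above the background level at either density, so the counts say little about the others. CD44, a cell surface receptor for hyaluronan that also binds serglycin, rose by 1.29 on the log2 scale, from 5.98 ± 0.08 to 7.27 ± 0.13 (SD, n = 3, adjusted p = 1.30e-04 by limma). MMP9, a secreted gelatinase that can be bound to serglycin, changed from 3.95 ± 0.15, below background, to 4.88 ± 0.11, at least 1.20-fold higher (adjusted p = 8.81e-04 by limma). VPS26A, the gene after SRGN, differed by −0.42 and DDX21, the gene before it, by −0.35, and neither was called. In bulk RNA, fewer cells of a type and less RNA per cell cannot be told apart.

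ASPN, OMD and OGN are gene neighbours, and for each of them all high density cultures lay below all normal density cultures. In the bovine reference gene table (assembly ARS-UCD2.0) they follow each other in the order OGN, OMD, ASPN and are followed by ECM2, a related leucine-rich repeat gene. All 4 genes lie within the span of CENPP, which encodes a protein of the centromere. Asporin has a stretch of aspartates at its start and binds collagen and TGF-beta, osteomodulin is a keratan sulfate proteoglycan first known from bone, and osteoglycin is a small SLRP of connective tissue.

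Asporin signals at normal density were 4.16, 4.48 and 4.60, and at high density 2.23, 2.19 and 1.995. All 6 lay below the background level, the highest of them by little. The difference was −2.27 on the log2 scale (SE = 0.13, adjusted p = 5.36e-05 by limma), and the groups did not overlap. Osteomodulin gave nearly the same picture, with 4.38, 4.39 and 4.43 at normal density and 1.94, 2.38 and 2.35 at high density. Its difference was −2.18 (SE = 0.12, adjusted p = 5.24e-05 by limma). Within the arrays, the difference between ASPN and OMD changed by −0.10 between the densities, with overlapping groups (two-sided exact permutation test, p = 0.8, adjusted p = 0.8 over 4 pairs of neighbouring genes).

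How much of these falls can be stated as an FC depends on where background is set. At the level of 4.62 no FC can be given. When the median of the control rows, 2.48, was used as the background level, the normal density signals of ASPN and OMD were above it and the high density signals below it, and ASPN was at least 3.82-fold and OMD at least 3.80-fold lower at high density. With the 20th percentile of all signals, 2.35, ASPN was at least 4.16-fold lower, and OMD had no bound because not all of its high density signals lay below that level.

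Osteoglycin changed less and from a dimmer signal. Its log2 signals were 2.62, 2.79 and 2.59 at normal and 2.26, 2.24 and 1.92 at high density, without overlap. The difference of −0.52 (SE = 0.11, adjusted p = 0.0171 by limma) passed the FDR threshold but not the FC threshold. The signal of OMD relative to OGN on the same array was lower at high density in all cultures. The size of the change was 1.65 on the log2 scale (p = 0.1 in a two-sided exact permutation test, adjusted p = 0.133 over 4 pairs). With 3 cultures per density this p can go no lower. All high density signals of both genes lay below the median of the control rows, 2.48. At normal density OGN lay only little above that level. The part of the starting levels in the change of this pair was not tested, nor was a different response of the genes.

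ECM2 changed in the same direction as these neighbours. Its log2 signals were 4.86, 5.12 and 4.93 at normal density, above background, and 3.95, 3.87 and 3.998 at high density, below it. ECM2 was called with −1.03 on the log2 scale (SE = 0.09, adjusted p = 3.16e-04 by limma), and was at least 1.28-fold lower. CENPP, around these genes, was called lower as well, by 0.64 on the log2 scale as the size of the change, with 5.69 ± 0.02 and 5.04 ± 0.26 at normal and high density (SD, n = 3, adjusted p = 0.0120 by limma), but this call was lost without high density replicate 1 (−0.50), in the methods' t-test (FDR 0.0746) and at an FDR threshold of 0.01. Beyond them, NOL8 with −0.24, IPPK with −0.02 and BICD2 with −0.08 were not called. Of the 30 other genes next to any of the 9 genes, up to 3 on each side, 2 were called lower, both at this locus, and 1 was called higher. These calls are 10% of the neighbours, near the 7.49% of all transcript clusters.

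**Figure D2:**
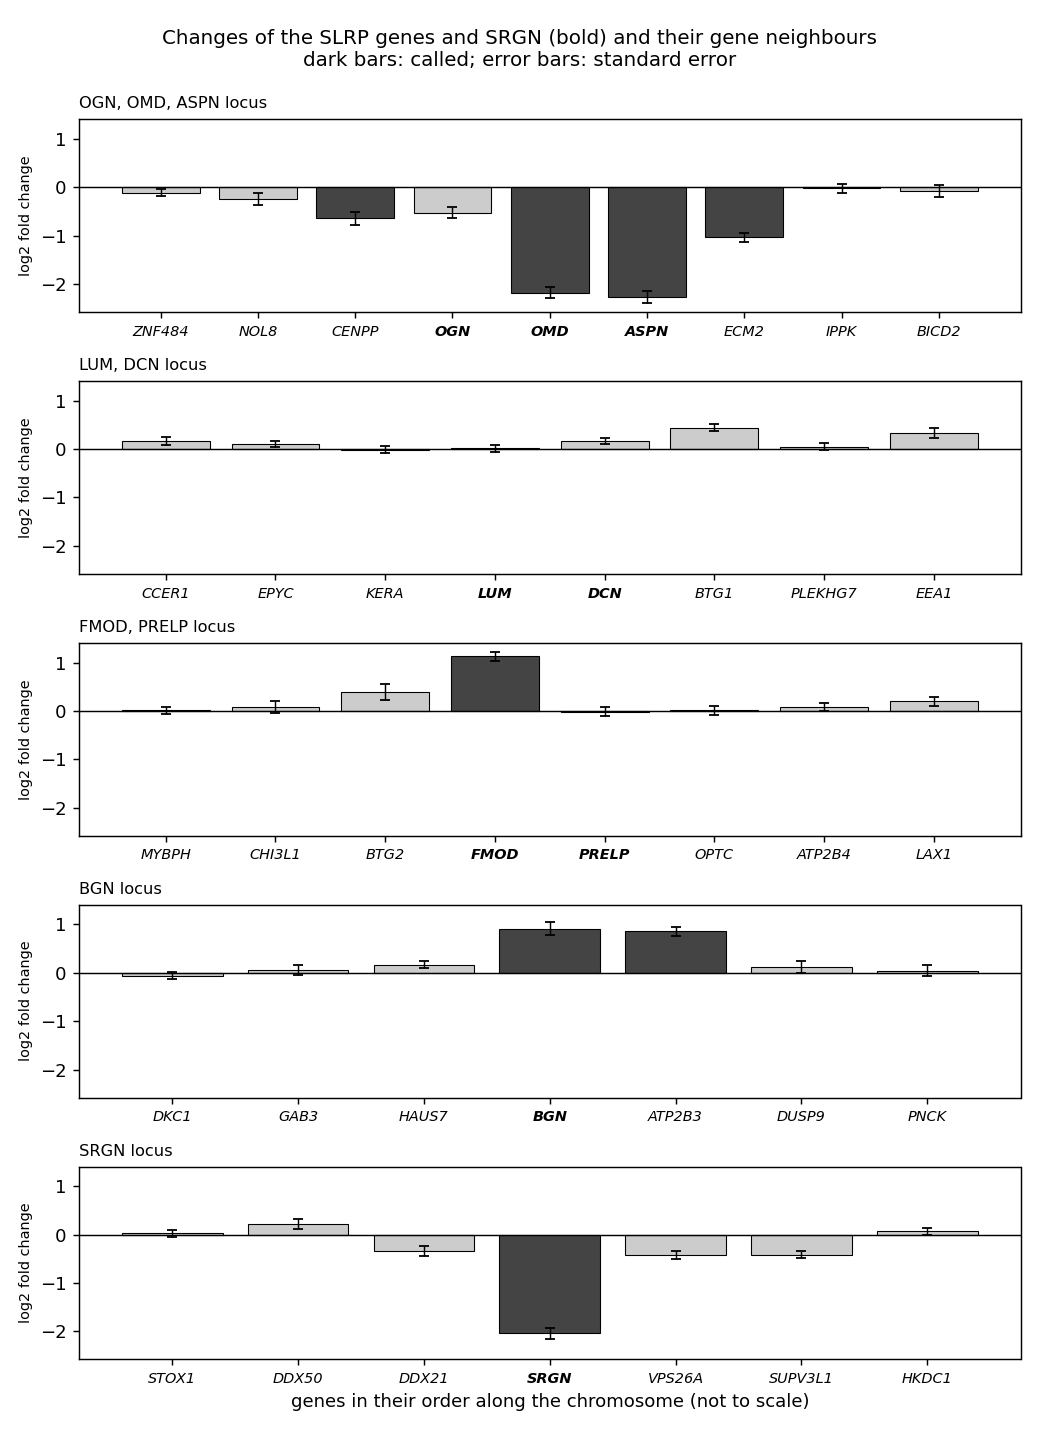
Log2 fold change of high over normal density (vertical axes) of the SLRP genes and SRGN (bold) and of up to 3 gene neighbours on each side, in their order along the chromosome (horizontal axes, not to scale), with bars for the standard error and dark columns for called genes. OMD, ASPN and ECM2 were called lower side by side and CENPP on the other side of OGN, which was not called, while at the locus of FMOD the neighbours PRELP and OPTC were not called.

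FMOD was the called gene that rose above background. Fibromodulin carries keratan sulfate, binds type I collagen and steers its crosslinking. Its log2 signals were 7.93, 8.08 and 7.93 at normal density and 9.23, 8.95 and 9.15 at high density. All high density cultures lay above all normal density cultures, and replicate 2 was the lowest of them. The log2 fold change was 1.13 (SE = 0.09, adjusted p = 2.75e-04 by limma), a 2.19-fold higher level with a 95% confidence interval from 1.88 to 2.55. Without high density replicate 2 the log2 fold change was 1.21.

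PRELP, a heparin-binding SLRP that anchors basement membranes to connective tissue, is the gene next to FMOD. Its log2 signals were 9.10, 9.22 and 9.07 at normal density and 9.28, 9.00 and 9.06 at high density. The groups overlapped, the log2 fold change was −0.02 (adjusted p = 0.928 by limma), and the 95% confidence interval of the FC reached from 0.85 to 1.15, so that a change by the threshold of 1.5 lies outside it. On the same arrays, the signal of PRELP relative to FMOD fell by 1.15 on the log2 scale between the densities, without overlap (two-sided exact permutation test, p = 0.1, adjusted p = 0.133 over 4 pairs). OPTC, the next gene and the SLRP opticin of the eye, had signals below background at both densities, 3.65 ± 0.06 and 3.66 ± 0.17 (SD, n = 3).

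Biglycan rose below the background level. Biglycan carries chondroitin or dermatan sulfate, and its free form is read by Toll-like receptors. Its log2 signals were 3.03, 3.07 and 3.09 at normal density and 4.24, 3.69 and 4.001 at high density. The groups did not overlap, and the spread was wider at high density (SD 0.28) than at normal density (SD 0.03). Its difference was 0.91 on the log2 scale (SE = 0.13, adjusted p = 0.00338 by limma). Leaving out high density replicate 2 gave 1.06, leaving out replicate 1 of that group gave 0.78, and BGN was called in both cases. ATP2B3, a calcium pump gene beside BGN, was also called higher, by 0.86 on the log2 scale, with both means below background.

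Decorin and lumican, SLRPs found in most collagen-rich tissue, were not called. Decorin binds collagen and holds TGF-beta, and lumican is the keratan sulfate proteoglycan that keeps the cornea transparent. The DCN signals were 10.65, 10.73 and 10.67 at normal density and 10.88, 10.84 and 10.85 at high density. They did not overlap, but the log2 fold change was only 0.17 (95% confidence interval from 0.02 to 0.32) and the adjusted p was 0.113 by limma. The methods' t-test gave DCN an FDR of 0.0341, with the same change far under the FC threshold. For LUM the signals were 11.62, 11.63 and 11.66 at normal and 11.65, 11.69 and 11.61 at high density, with overlapping groups and a log2 fold change of 0.01 (adjusted p = 0.910 by limma). The 95% confidence interval of the FC was from 1.01 to 1.25 for DCN and from 0.91 to 1.12 for LUM. Only 0.0336% of the transcript clusters had a higher mean signal than LUM and 0.474% a higher one than DCN, and whether the array loses response at such signals was not tested. KERA and EPYC, the cornea and cartilage SLRPs next to LUM, were below background at both densities and were not called, with differences of −0.01 and 0.10.

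Without regard to the FC threshold, 6 of the 9 genes passed the FDR threshold, against 19.1% of all transcript clusters. In 7 of them the cultures of the densities did not overlap, against 37.3% of all transcript clusters. LUM and PRELP were the exceptions.

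The rest of the SLRP family was mostly dim. Of 10 further family genes on the array, TSKU and ECM2 were called and 8 were not, and the median log2 fold change was 0.12. This is 20% of these genes, against 7.49% of all transcript clusters. TSKU, the secreted BMP inhibitor tsukushi, had signals of 6.71, 6.79 and 6.62 at normal density and of 7.51, 7.27 and 7.49 at high density, and rose by 0.72 on the log2 scale (adjusted p = 0.00179 by limma). CHAD, the cartilage protein chondroadherin, ranged from 4.36 to 4.56 at normal density and from 4.35 to 5.29 at high density and was not called. Without high density replicate 2, its lowest signal in that group, CHAD was called higher (0.60, adjusted p = 0.0310 by limma).

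**Figure D3:**
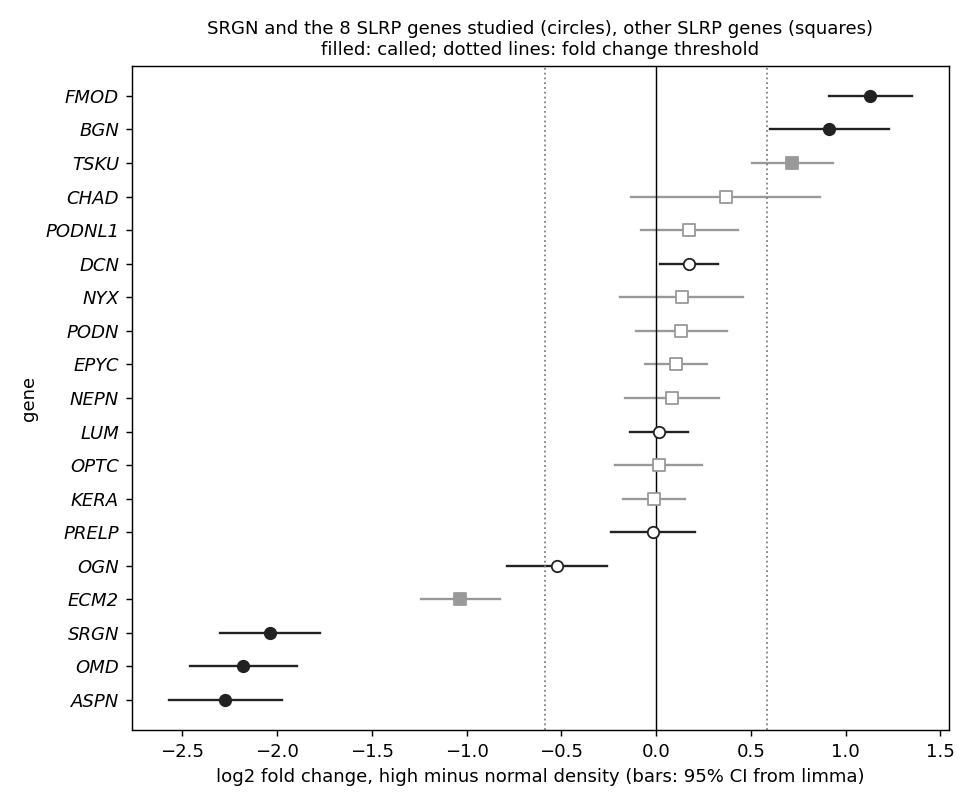
Log2 fold change of high over normal density (horizontal axis) with its 95% confidence interval from limma for SRGN and the SLRP genes studied (circles) and further SLRP family genes (squares), filled where called, with dotted lines at the FC threshold of 1.5. The points of ASPN, OMD, SRGN and ECM2 lie left of the lower threshold and those of FMOD, BGN and TSKU right of the upper one. The interval of OGN crosses the lower threshold, and the intervals of TSKU and CHAD cross the upper one.

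Genes that work with SLRPs were read from lists written from general knowledge. The lists share some genes, among them CD44, MMP9 and COL1A1, so their counts are not separate. Collagens bound by SLRPs rose or were not called, with 5 of 12 transcript clusters called higher and 0 lower by limma (10 higher and 0 lower at an unadjusted p below 0.05) and a median log2 fold change of 0.53. The calls are 41.7% of the list, against 7.49% of all transcript clusters. At the unadjusted p, 15.1% of all transcript clusters were higher and 17.2% lower. COL1A1, the main chain of type I collagen, rose by 1.15 on the log2 scale, with 6.48 ± 0.21 and 7.62 ± 0.14 at normal and high density (SD, n = 3, adjusted p = 9.04e-04 by limma). COL5A1, which starts fibrils, rose by 0.90 and 0.68 on its called transcript clusters, COL6A1 by 0.85, and COL6A3 was at least 1.05-fold higher. COL6A2 was called as well when high density replicate 2 was left out (0.61). Of the growth factors and receptors bound by decorin or biglycan, 5 of 19 were called higher and 0 lower (11 and 3 at an unadjusted p below 0.05), with a median of 0.25. Here 26.3% of the list were called. TGFB1, a ligand held by decorin, rose by 1.88 on the log2 scale (adjusted p = 2.17e-05 by limma), CTGF, a matrix-bound growth factor, by 1.59 and WISP1, of the same family, by 1.08, the last of which was not called by the methods' t-test. BMP4, which biglycan binds, rose from below background and was at least 1.51-fold higher. TLR4, a receptor of free biglycan, was below background at both densities, with 2.73 ± 0.08 and 2.56 ± 0.17 (SD, n = 3).

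Other proteoglycan core proteins were called in the upward direction. Of 28 transcript clusters 8 were called higher and 0 lower (13 and 2 at an unadjusted p below 0.05), with a median of 0.19. This is 28.6% of the list, against 7.49% of all transcript clusters. Over all transcript clusters 15.1% were higher and 17.2% lower at the unadjusted p. The cell surface heparan sulfate proteoglycan SDC1 rose by 1.77 on the log2 scale (adjusted p = 7.01e-05 by limma). CSPG5, a brain-type chondroitin sulfate proteoglycan, was at least 3.02-fold higher, COL18A1, a heparan sulfate carrying collagen, at least 2.32-fold, and SPOCK2, a testican, rose by 1.38. The call of GPC4, a glypican, was lost without high density replicate 2 (0.51), with array weights (0.54) and under median centring (0.56). VCAN, versican of the follicular matrix, was not called, with 10.53 ± 0.04 and 10.68 ± 0.11 (SD, n = 3).

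Of each list of enzymes that build GAG chains 1 transcript cluster was called, which is 7.14%, 7.69% and 8.33% of the lists against 7.49% of all transcript clusters. In the list of linker and precursor genes 1 of 14 was called, XYLT1, which adds the first sugar to the core protein, with a rise of 0.72 on the log2 scale. In the list for chondroitin and dermatan sulfate chains 1 of 13 was called, DSEL, a dermatan sulfate epimerase, which fell by 0.66. For keratan sulfate 1 of 12 was called, the sialyltransferase ST3GAL1, with a rise of 0.62, and this call was lost when each array was shifted to the same median and without replicate 3 of either density. Without high density replicate 2, the precursor transporter SLC35D1 was called lower (−0.69) and the keratan sulfate sulfotransferase CHST6 higher (0.78), and both were also called with array weights, CHST6 with the background filter as well. The median log2 fold changes of the lists were −0.02, −0.04 and 0.22. Proteases that cleave SLRPs changed in both directions, with 3 of 15 transcript clusters called higher and 1 lower, and 26.7% of the list called. ADAMTS1 and TLL2, a relative of the enzyme that trims the biglycan precursor, each rose by 0.92 on the log2 scale. The gelatinase MMP2 fell by 0.63, a call that was lost with high density replicate 1 or 2 left out, in the methods' t-test, with array weights and after a second quantile normalization.

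**Figure D4:**
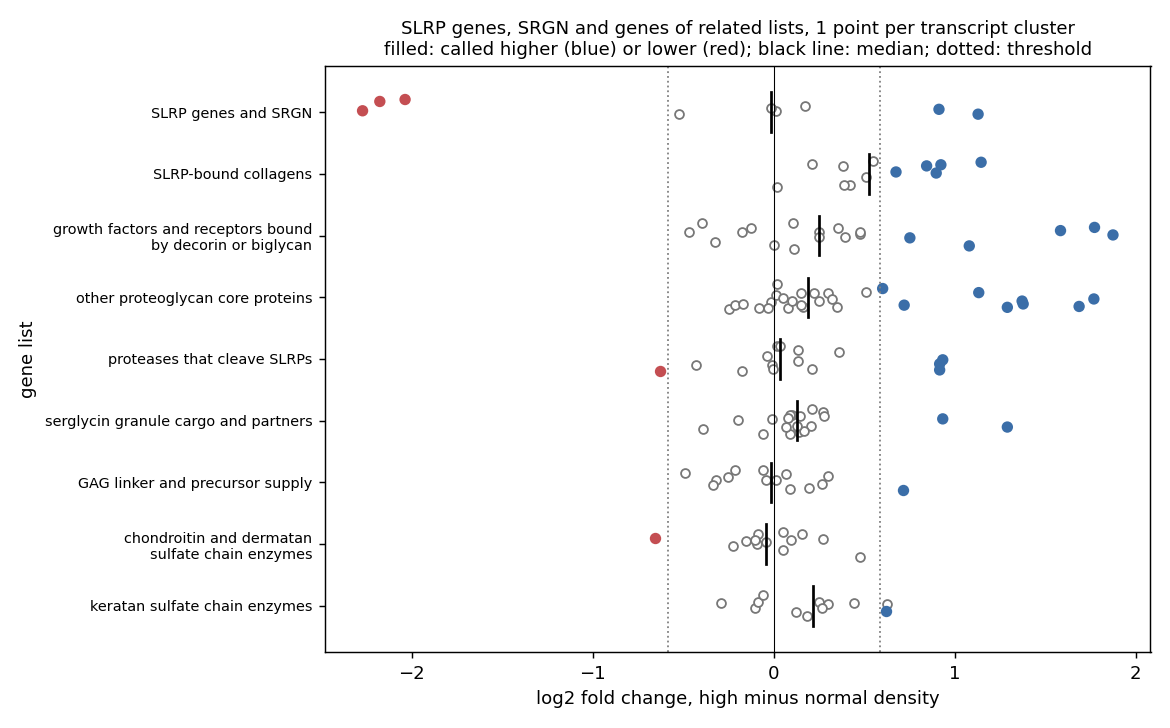
Log2 fold change of high over normal density (horizontal axis) of SRGN with the SLRP genes and of 8 related gene lists (rows), 1 point per transcript cluster, filled blue where called higher and red where called lower, with a black line at the median of each row. The calls among collagens, growth factors and other proteoglycans were all rises, while SRGN and the SLRP genes were called in both directions. A gene in several lists has a point in each.

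Since DCN, LUM and other SLRPs are also products of fibroblasts and theca, markers of other cells were read in the same cultures. The GC had been aspirated as loose cells, an isolation that the methods describe as leaving theca behind. Fibroblast and stroma markers had a summed linear signal between 2902 and 2968 at normal density and between 3404 and 3461 at high density, with 4 of 13 called higher and 0 lower (7 and 1 at an unadjusted p below 0.05). Over all transcript clusters 7.49% were called, and 15.1% were higher and 17.2% lower at the unadjusted p. In the fibroblast and stroma list 30.8% were called. The called genes were THY1, a surface protein of fibroblasts, with a rise of 1.71 on the log2 scale, COL1A1, PDGFRB, a PDGF receptor, with 0.94, and DPT, the matrix protein dermatopontin, with a difference of 1.40 below background. PDGFRA was above background in all cultures, with 7.30 ± 0.07 and 7.62 ± 0.07 (SD, n = 3), and was not called. Of the theca markers 3 of 10 were called higher and 1 lower, 40% of the list, with summed signals between 1083 and 1142 at normal and between 1913 and 2079 at high density. ALPL, an alkaline phosphatase, rose by 2.31 on the log2 scale, INSL3, a peptide hormone of theca and Leydig cells, by 1.82 and ACTA2, smooth muscle actin, by 1.15. LHCGR, the LH receptor, which GC carry as well, differed by −1.20 below the background level of the array. CYP17A1, the androgen-making enzyme of theca cells, was below background at both densities (2.93 ± 0.08 and 2.92 ± 0.11, SD, n = 3).

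Endothelial markers summed to between 127 and 129 at normal and between 281 and 318 at high density, with the tight junction gene CLDN5 as the only call (2.81). Only 2 of these 10 markers had a mean above the background level at either density, and the median log2 fold change of the list was 0.10. Surface epithelium markers summed to between 856 and 892 and between 1207 and 1368. Their only call, UPK1B with 0.62, was lost under median centring, with array weights and without high density replicate 2 (0.55). Red blood cell markers summed to between 65 and 67 and between 626 and 944, with the hemoglobin gene HBA as the only call, at least 27.0-fold higher. HBA was the only 1 of their 10 transcript clusters above the background level and led the sum at high density. The median log2 fold change of this list was 0.065. The calls are 10% of the endothelial, 11.1% of the surface epithelium and 10% of the red blood cell list. Over all transcript clusters the share was 7.49%. Of 15 GC markers 7 were called lower and 1 higher, 53.3% of the list, and their sum was between 10652 and 11488 at normal and between 8423 and 8615 at high density. The FSH receptor gene FSHR fell by 2.21 on the log2 scale and CYP19A1, the aromatase, from 6.51 to 3.71, at least 3.70-fold. The inhibin subunit genes INHA and INHBA fell by 2.16 and 1.37 on the log2 scale, and HSD17B1, a steroid dehydrogenase, was at least 1.78-fold higher. The part of these cell markers in the changes of the SLRP genes was not tested.

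For the called genes above background, the transcript clusters with the best correlated signals over the 6 cultures were listed as a description. For SRGN these were NFIA, DOCK4 and NDRG3, with Pearson's r of 0.9995, 0.9993 and 0.9991, and for FMOD they were SEPT5, CDYL2 and RNF24 with 0.9992, 0.9991 and 0.999. A high r does not mean a change of like size. On the log2 scale NFIA, DOCK4 and NDRG3 differed by −0.44, −0.97 and −0.22, against −2.04 for SRGN. SEPT5, CDYL2 and RNF24 differed by 1.23, 0.41 and 0.89, against 1.13 for FMOD. With 3 cultures at each of 2 densities, a gene whose signals separate the densities widely has a high r, and 162 and 205 of 11249 transcript clusters had an r above 0.99 with SRGN and FMOD.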

How the data were processed

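The authors scanned 6 arrays and processed them in Expression Console with RMA, giving the deposited log2 signals, which are background corrected, normalized between arrays and summarized per transcript cluster. The table holds 0 columns of other samples. No values were normalized again for the main results, and only the alternatives with other scalings changed them. The lmFit and eBayes functions of limma (version 3.58.1, R version 4.3.3) were run without covariates on all 26773 transcript clusters with Benjamini-Hochberg adjustment. Single values were compared with two-sided exact permutation tests over cultures. Array number limits the precision. Where only one density was above background, the dimmer signals were raised to the background level for a fold given as "at least". The gene symbols are the table's own. On simulated arrays with 200 changed transcript clusters, limma recovered 90% of log2 changes of 1 and 96% of those of 2, with 2 false calls. The methods' t-test recovered 43% and 74% of them with 0 false calls, so a call lost in that test can reflect its lower power. The simulation gave both densities the same spread, while the median SD of the data was 0.082 at normal and 0.126 at high density. Gene order was read from the RefSeq gene table of ARS-UCD2.0; the array's own build is not given in the sources used here. Plots were made in Python 3.11.15 with matplotlib 3.10.9.

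The genes and lists were chosen with earlier results of these data known. Named from the lists were the called genes, up to 4 per direction by size of change, and defining genes of the family and cell types whatever their change, gene neighbours, and for SRGN and FMOD the 3 most similar genes. CHAD, VCAN, TLR4, KIT, COL6A2, GPC4, SLC35D1, CHST6, COL12A1, GPC5 and KDR are not named by this rule and were added with their values in view. Alternatives were the methods' t-test, other variance priors, array weights, a replicate block, other scalings, a background filter, an FDR of 0.01 and leaving out each culture.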

Additional observations from a re-analysis of the deposited data

How the results depend on the processing

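The counts of 2 genes called higher and 3 called lower were the same or within 1.5 times under all alternatives except the filter at the background level, which kept 1 higher (FMOD) and 1 lower (SRGN) because it removed ASPN, OMD and BGN. With array weights OGN was called as well, with −0.61. With each culture left out in turn the counts stayed at 2 and 3, and the log2 fold changes were between −2.14 and −1.93 for SRGN, −2.40 and −2.18 for ASPN, −2.26 and −2.04 for OMD, 1.07 and 1.21 for FMOD and 0.78 and 1.06 for BGN. OGN lost its FDR below 0.05 in the methods' t-test (0.0818) and without normal density replicate 1 (0.0513) or 2 (0.0675). The number of the 9 genes with the means of both densities at or below background was 4 with the level used here, 0 with the median of the control rows and 0 with the 20th percentile of all signals. DCN passed the FDR threshold but not that of the FC in the methods' t-test (0.0341), with trend and robust variances (0.0148) and with the background filter (0.0468). Of the related lists, COL12A1 was called without high density replicate 1 (0.59) and with array weights (0.59), GPC5 without normal density replicate 3 (0.66) and KDR without high density replicate 3 (0.60). A replicate block gave 2 higher and 3 lower as well. The replicate numbers were not taken as pairs, since deviations of cultures with the same number correlated by 0.05, −0.05 and −0.04 over all transcript clusters. The block moved the count of calls over all transcript clusters from 2005 to 2020, and not every culture correlated best with the culture of its own number.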

Other observations

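The signals most like those of the called genes above background were looked up over the 6 cultures among 11249 transcript clusters with a symbol and a signal above background. By Pearson's r, as a description, NFIA, DOCK4 and NDRG3 were closest to SRGN (r = 0.9995, 0.9993 and 0.9991) and SEPT5, CDYL2 and RNF24 to FMOD (r = 0.999 each). Their log2 fold changes were −0.44, −0.97 and −0.22 for the genes listed for SRGN, and 1.23, 0.41 and 0.89 for those listed for FMOD. An r above 0.99 with SRGN was found for 162 transcript clusters and with FMOD for 205, since all points share the split by density. By Euclidean distance of centred signals other genes were closest, RASL11B, FSHR and PPAP2B to SRGN, with log2 fold changes of −1.92, −2.21 and −1.84, and GYG2, ARRDC2 and LOC507426 to FMOD, with 1.164, 1.189 and 1.077.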
